A study of Mus musculus with 4 samples.

Results

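The neutrophil genes described here were *S100a8*, *S100a9*, *Retnlg*, *Csf3r*, *Ngp*, *Ltf*, *Camp*, *Lcn2*, *Mpo* and *Elane*, 10 of the 49315 genes in a table of RNA-Seq counts. They were taken by symbol, and the set had been chosen from measured values of these same libraries, so levels and ratios are given below as descriptions, with no test. The libraries were made from group 2 innate lymphoid cells (ILC2s) of mouse lungs, sorted by the absence of lineage markers and the presence of Thy1.2, ICOS and T1/ST2, and kept in culture with IL-2 in all groups. Each of 4 groups had 1 library: WT C57BL/6 mice given PBS (PBS-WT), *Hps1*-/- mice given PBS (PBS-HPS1), WT mice given bleomycin (BLEO-WT) and *Hps1*-/- mice given bleomycin (BLEO-HPS1). *Hps1*-/- mice were on the same C57BL/6 background and lack *Hps1* in every tissue. The study gave bleomycin by the intratracheal or the intraperitoneal route. The route, dose, day and age behind these libraries, and the number and sex of the mice, are not given in the sources used here. The libraries were made from 22405 cells (PBS-WT), 38873 cells (PBS-HPS1), 84166 cells (BLEO-WT) and 128647 cells (BLEO-HPS1).

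Neutrophils are short-lived phagocytes that are made in the bone marrow and enter the lung within hours of injury. They fill their granules in a fixed order. Promyelocytes make the primary granules with myeloperoxidase and serine proteases, myelocytes make the secondary granules with lactoferrin, cathelicidin and lipocalin 2, and the genes for these cargoes are largely shut down by the time a neutrophil is mature. The cytosolic calprotectin subunits and the G-CSF receptor are transcribed into the mature stage, so the mix of transcripts reads out stages of maturation in pure granulocytes. Most of these genes are also used elsewhere: monocytes make calprotectin and *Csf3r*, and inflamed epithelium makes *Lcn2*. HPS1 is a subunit of BLOC-3, a complex needed for lysosome-related organelles such as melanosomes and platelet dense granules, and loss of it causes Hermansky-Pudlak syndrome.

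*Ngp*, *Ltf* and *Camp*, which had the widest spread of log2 CPM (prior count 2) across the libraries, lie within 1195 kb of chromosome 9 (GRCm38), and *S100a8* and *S100a9* lie together within 26.7 kb of chromosome 3. The promoter windows of the 4 secondary granule genes are shown because *Ngp*, *Ltf* and *Camp* had ratios of the same direction in every comparison, while *Lcn2* differed from them in BLEO-HPS1 against BLEO-WT. They run from 250 bases before to 50 bases after the RefSeq start (GRCm38.p6), written 5′ to 3′ on the strand of the gene. Capitals mark matches to TTGCNNAA, a core of the C/EBP motif, searched on both strands. The window of *Ngp* is chr9:110419558-110419857 on the plus strand, that of *Ltf* chr9:111019042-111019341 on the plus strand, that of *Camp* chr9:109849407-109849706 on the minus strand and that of *Lcn2* chr2:32387690-32387989 on the minus strand.
Ngp: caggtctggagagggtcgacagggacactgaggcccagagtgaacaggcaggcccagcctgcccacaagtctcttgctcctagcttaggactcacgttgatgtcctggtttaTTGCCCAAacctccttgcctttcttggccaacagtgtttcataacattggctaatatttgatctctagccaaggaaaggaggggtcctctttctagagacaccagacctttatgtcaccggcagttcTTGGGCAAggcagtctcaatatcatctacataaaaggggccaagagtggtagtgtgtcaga
Ltf: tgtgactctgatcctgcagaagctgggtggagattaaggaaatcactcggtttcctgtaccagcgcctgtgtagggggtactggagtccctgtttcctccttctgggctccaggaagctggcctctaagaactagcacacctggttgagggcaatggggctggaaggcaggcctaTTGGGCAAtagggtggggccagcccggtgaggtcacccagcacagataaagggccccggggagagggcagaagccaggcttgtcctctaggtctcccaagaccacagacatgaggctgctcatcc
Camp: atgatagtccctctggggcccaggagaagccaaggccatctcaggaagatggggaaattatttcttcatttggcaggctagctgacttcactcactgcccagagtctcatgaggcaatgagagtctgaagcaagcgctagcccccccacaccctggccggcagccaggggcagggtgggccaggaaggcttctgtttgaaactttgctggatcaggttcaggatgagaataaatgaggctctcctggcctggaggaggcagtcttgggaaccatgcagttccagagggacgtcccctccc
Lcn2: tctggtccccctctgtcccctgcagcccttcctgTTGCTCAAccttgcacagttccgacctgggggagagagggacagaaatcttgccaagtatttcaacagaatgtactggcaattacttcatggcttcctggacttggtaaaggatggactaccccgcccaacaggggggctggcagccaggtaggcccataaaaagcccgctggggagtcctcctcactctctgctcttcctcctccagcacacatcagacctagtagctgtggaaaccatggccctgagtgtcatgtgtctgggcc

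The core was found in the windows of 5 of the 10 genes, *Ngp*, *Ltf*, *Lcn2*, *Retnlg* and *S100a9*, and in 10.8% of 32851 RefSeq promoter windows of the same length. C/EBP factors, among them C/EBP epsilon, drive granule genes in myelocytes. The window of *Ngp* held 2 matches, which start 138 and 11 bases before the transcription start, and that of *Ltf* held 1, which starts 75 bases before it. *Camp* had none in this window. GAGGAA, a core of the PU.1 motif whose matches did not overlap those above, was found on either strand in 6 of the 10 windows and in 28.3% of all windows. A match describes the letters only.

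Total counts were between 72513619 and 87638154, and 3 reads corresponded to at most 0.0475 CPM, a level that divides the reads on a gene by the library size after TMM scaling. With 1 library per group no spread between mice is known, so the 95% intervals given are exact (Clopper-Pearson) and cover counting error only. *Hps1* itself had 38.3 CPM in PBS-WT, 16.6 CPM in PBS-HPS1, 48.4 CPM in BLEO-WT and 21.3 CPM in BLEO-HPS1, so reads on the targeted gene were fewer in both *Hps1*-/- libraries but did not vanish. Where on the gene they lie cannot be read from these counts. ILC2 genes had reads in each library, with *Gata3* at 25.1 to 39.1 CPM and *Il1rl1*, which encodes T1/ST2, at 23.8 to 40.9 CPM. Some ILC2 genes were low, with *Ptgdr2* at 0.301 to 0.818 CPM, *Il5* at 0.293 to 1.06 CPM and *Il13* at 0.269 to 1.43 CPM. *Areg* was not matched by its symbol. The antibodies used to discard other lineages included Ly6G and CD11b, both carried by neutrophils. Reads were nevertheless counted on *Ly6g*, with 316 and 58 reads in PBS-WT and PBS-HPS1 and 182 and 67 reads after bleomycin, and on *Itgam*, which encodes CD11b, at 61.5 to 236 CPM. The 10 genes together took 113171 reads in PBS-WT, 36572 reads in PBS-HPS1, 61634 reads in BLEO-WT and 24704 reads in BLEO-HPS1. These were 0.156%, 0.0471%, 0.0703% and 0.0319% of all counts, in that order. Fewer cells of a type and less RNA per cell cannot be told apart in such bulk libraries.

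The cytosolic and surface genes were the most abundant of the set. Per kilobase of annotated exon, the order in PBS-WT was *S100a9* at 991 CPM per kb, *S100a8* at 468, *Retnlg* at 142, *Csf3r* at 86.9, *Ngp* at 61.2, *Lcn2* at 21.4, *Ltf* at 20.3 and *Camp* at 11.5. The primary granule genes came last, with *Elane* at 0.821 and *Mpo* at 0.495 CPM per kb. *Lcn2* and *Ltf* were neighbours in this order. Over the longest transcript alone they stood further apart, at 40.9 and 25.5 CPM per kb. The first 4 places were the same in the other 3 libraries. *Ngp* stood above *Lcn2* in PBS-WT and below it in the others, although in BLEO-HPS1 both were near 13 CPM per kb.

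*S100a8* and *S100a9* encode the subunits of calprotectin, a calcium- and zinc-binding heterodimer that makes up much of the neutrophil cytosol. *S100a8* (chromosome 3, 90668978 to 90670035, plus strand) had 325 CPM in PBS-WT, 60.0 CPM in PBS-HPS1, 188 CPM in BLEO-WT and 82.5 CPM in BLEO-HPS1. *S100a9* (chromosome 3, 90692632 to 90695721, minus strand) stood at 517, 109, 287 and 103 CPM, listed likewise. Both were higher in each WT library than in either *Hps1*-/- library. For *S100a9* the *Hps1*-/- libraries were close to each other, with intervals of 107 to 111 CPM with PBS and 101 to 106 with bleomycin.

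*Retnlg* and *Csf3r* had the smallest spread. *Retnlg* (chromosome 16, 48872621 to 48874496, plus strand), a resistin-like secreted protein of neutrophils, had 84.2 CPM in PBS-WT, 28.6 CPM in PBS-HPS1, 60.9 CPM in BLEO-WT and 38.3 CPM in BLEO-HPS1. *Csf3r* (chromosome 4, 126024550 to 126044440, plus strand), the receptor for G-CSF that sustains neutrophil production, had a CPM of 314, 152, 178 and 99.8. Its lowest value was in BLEO-HPS1, while that of *Retnlg* was in PBS-HPS1.

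The secondary granule genes fell into *Ngp*, *Ltf* and *Camp* on the one side and *Lcn2* on the other. *Ngp* (chromosome 9, 110419747 to 110423012, plus strand), a cystatin-related granule protein, had 5830 reads in PBS-WT, 283 reads in PBS-HPS1, 920 reads in BLEO-WT and 1000 reads in BLEO-HPS1, or 74.8, 2.86, 11.7 and 15.8 CPM. *Ltf* (chromosome 9, 111019271 to 111042767, plus strand), the iron-binding lactoferrin, had 5454, 284, 636 and 859 reads, or 70.0, 2.87, 8.11 and 13.6 CPM. *Camp* (chromosome 9, 109847379 to 109849617, minus strand), the antimicrobial cathelicidin, had 677, 21, 93 and 162 reads, or 8.68, 0.212, 1.19 and 2.56 CPM. All 3 were highest in PBS-WT and lowest in PBS-HPS1, with BLEO-HPS1 above BLEO-WT. *Lcn2* (chromosome 2, 32384633 to 32388252, minus strand), which binds bacterial siderophores and is also made by epithelium, had a CPM of 56.2, 13.8, 50.2 and 34.7. It differed from the other 3 in that BLEO-WT stood near PBS-WT.

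The primary granule genes were barely covered. *Mpo* (chromosome 11, 87793581 to 87804413, plus strand), which encodes myeloperoxidase, had 132 reads in PBS-WT, 21 reads in PBS-HPS1, 7 reads in BLEO-WT and 19 reads in BLEO-HPS1. *Elane* (chromosome 10, 79886247 to 79888215, plus strand), which encodes neutrophil elastase, had 63, 10, 2 and 10 reads. Both were highest in PBS-WT. Among the other libraries the counting intervals of *Mpo* overlapped, at 0.131 to 0.324 CPM in PBS-HPS1, 0.0359 to 0.184 in BLEO-WT and 0.181 to 0.470 in BLEO-HPS1.

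**Figure D1:**
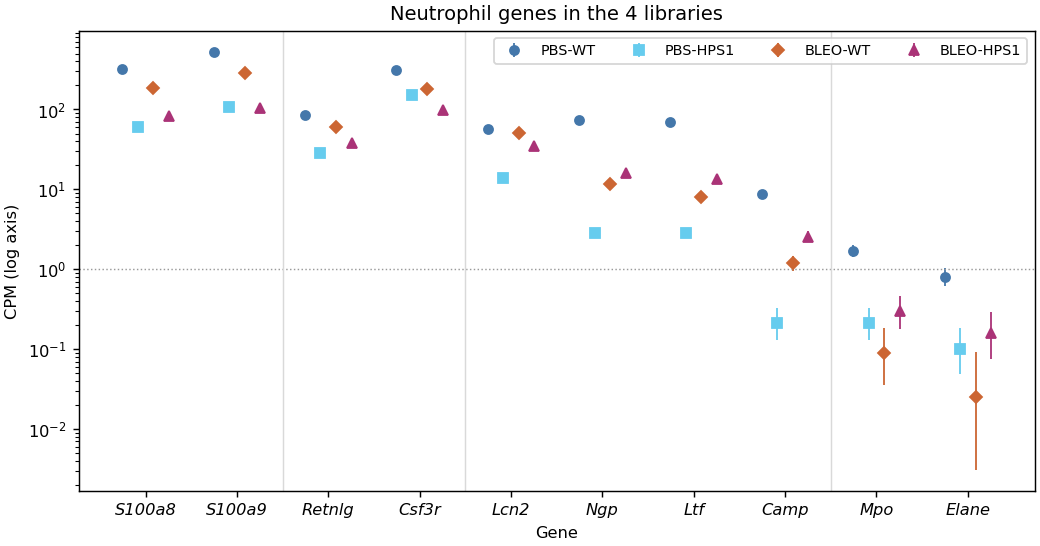
CPM (log axis) of the 10 genes in the 4 libraries, with 1 point per library and bars for the exact 95% counting interval. Grey lines separate calprotectin, *Retnlg* and *Csf3r*, secondary granule and primary granule genes, and the dotted line marks 1 CPM. PBS-WT is the highest point for every gene, and *Ngp*, *Ltf* and *Camp* fall furthest in PBS-HPS1, to 2.86, 2.87 and 0.212 CPM.

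The first comparison set *Hps1*-/- against WT mice without injury. Log2 ratios are differences of log2 CPM (prior count 2), over the 14840 genes with at least 1 CPM in some library, and a gene was counted as different at 2-fold or more. *Elane* missed this filter and *Mpo* passed it only through PBS-WT, so 9 of the 10 genes were compared. All 10 were at least 2-fold lower in PBS-HPS1, counting *Elane*. Over all genes 3.11% were at least 2-fold lower and 2.16% were 2-fold higher or more. With library sizes taken as total counts the shares were 2.02% lower and 4.38% higher. The set had been chosen on such values, so nothing follows from this count. The median log2 ratio was -2.43 over the 9 genes and -0.19 over all genes. Among markers of other cells, 4 of 7 monocyte genes were at least 2-fold lower in the same library, and none of 11 macrophage genes or 10 ILC2 genes was.

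The difference was widest for *Camp*, *Ngp* and *Ltf*. *Camp* was 40.9-fold lower in PBS-HPS1 (interval 26.6 to 66.6), *Ngp* 26.2-fold (23.2 to 29.6) and *Ltf* 24.4-fold (21.6 to 27.6). The intervals of *Ngp* and *Ltf* overlapped, so these secondary granule genes were not separated from each other by counting error. *Lcn2*, in the same granule, was 4.08-fold lower, less than the calprotectin genes. For *Mpo* the fold was 7.98 (5.01 to 13.3) and for *Elane* 8.0 (4.08 to 17.5). The calprotectin genes were 5.41-fold lower for *S100a8* and 4.76-fold for *S100a9*, *Retnlg* was 2.94-fold lower and *Csf3r* 2.06-fold. *Csf3r* was near the 2-fold limit, and with total counts its log2 ratio was -0.80. A loess correction for GC content and transcript length was set as an alternative because ratios between the libraries depended on these. Between the PBS libraries Spearman's rho with the log2 ratio was 0.429 for length and -0.0726 for GC content. The correction gave log2 ratios of -4.94 for *Camp*, -4.48 for *Ngp* and -4.55 for *Ltf* in place of -5.20, -4.70 and -4.60.

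The second comparison set bleomycin against PBS in WT mice, and it shares PBS-WT with the first. All 10 genes were lower in BLEO-WT, 5 of them at least 2-fold, namely *Ngp*, *Ltf*, *Camp*, *Mpo* and *Elane*. Of all genes, 8.22% were lower by 2-fold or more and 5.28% higher by as much, against 13.4% and 3.17% with total counts. Of the 9 genes 4 were at least 4-fold lower, and of all genes 1.82%. *Lcn2* had the smallest fold of the 10. *Ltf* was 8.63-fold lower in BLEO-WT (7.94 to 9.38), *Camp* 7.32-fold (5.89 to 9.20) and *Ngp* 6.37-fold (5.94 to 6.84). *Mpo* was 19.0-fold lower (8.95 to 48.1) on 7 reads, and *Elane* 31.7-fold on 2 reads, with an interval of 8.41 to 267. The remaining 5 were less than 2-fold lower, from 1.80-fold for *S100a9*, 1.76-fold for *Csf3r* and 1.72-fold for *S100a8* to 1.38-fold for *Retnlg* and 1.12-fold for *Lcn2*. With total counts *S100a8*, *S100a9* and *Csf3r* passed 2-fold as well, at log2 ratios of -1.05, -1.11 and -1.08. Among markers of other cells, 6 of 7 basophil and mast cell genes and 4 of 6 eosinophil genes were at least 2-fold lower in the same library, with median log2 ratios of -2.94 and -1.88. The eosinophil gene *Ear6* was at least 2-fold higher, at a log2 ratio of 1.66. Of the lower genes, *Prg2* passed the 1 CPM filter only through PBS-WT. *Ccr3*, *Il5ra*, *Fcer1a*, *Ms4a2* and *Cd200r3* passed it only through the PBS libraries.

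The third comparison set bleomycin against PBS in *Hps1*-/- mice. Here 4 of the 9 genes were higher in BLEO-HPS1 by 2-fold or more, and none was lower by as much. All 4 were secondary granule genes. *Camp* was 12.1-fold higher (7.65 to 20.1), *Ngp* 5.54-fold (4.85 to 6.34), *Ltf* 4.74-fold (4.14 to 5.44) and *Lcn2* 2.52-fold (2.35 to 2.70). Ratios between these libraries were wide for many genes: 26.2% of all genes were higher by 2-fold or more, 19.6% lower by as much, and 4.37% were at least 4-fold higher, as were *Ngp*, *Ltf* and *Camp*. With total counts the shares were 9.06% and 34.5%, and after the GC and length correction 17.1% and 8.84%. *Ngp*, *Ltf* and *Camp* stayed at least 2-fold higher under both, at log2 ratios of 1.73, 1.94 and 2.25 after the correction, whereas *Lcn2* came to 0.35. *S100a8* and *Retnlg* had log2 ratios of 0.46 and 0.42, which were -0.18 and -0.22 with total counts. *Csf3r* was 1.52-fold lower in BLEO-HPS1, a log2 ratio of -0.61, which was -1.25 with total counts. For *S100a9* the log2 ratio was -0.07. With 19 against 21 reads for *Mpo* and 10 against 10 for *Elane*, no difference was detectable at this depth (log2 intervals of -0.47 to 1.47 and -0.77 to 2.07).

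**Figure D2:**
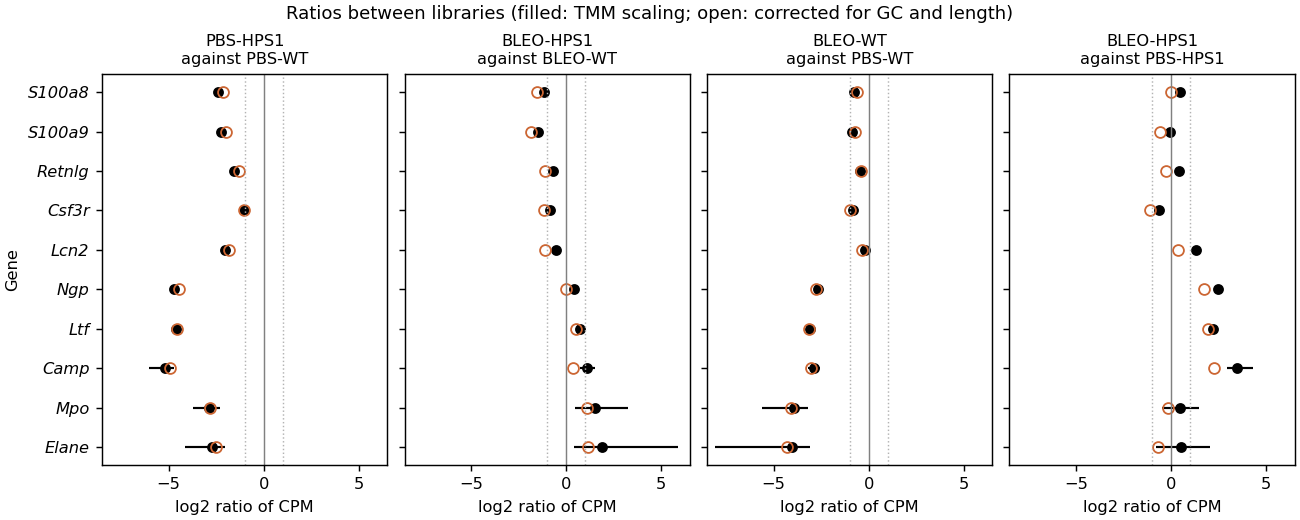
Log2 ratios of CPM for the 10 genes in the 4 comparisons. Filled points are ratios after TMM scaling with exact 95% counting intervals as bars, open points are ratios after correction for GC content and length, and dotted lines mark 2-fold. Before correction *Ngp*, *Ltf* and *Camp* lie at -5.20 to -4.60 in PBS-HPS1 against PBS-WT and at 2.24 to 3.45 in BLEO-HPS1 against PBS-HPS1.

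The fourth comparison set the genotypes against each other after bleomycin. The genes did not share a direction. *S100a8* was 2.28-fold lower in BLEO-HPS1 than in BLEO-WT (2.21 to 2.36) and *S100a9* 2.78-fold (2.70 to 2.86), while *Csf3r*, *Retnlg* and *Lcn2* were 1.79-, 1.59- and 1.44-fold lower. *Camp* was 2.16-fold higher in BLEO-HPS1 (1.67 to 2.82), *Ltf* 1.68-fold (1.51 to 1.86) and *Ngp* 1.35-fold (1.23 to 1.48). *Mpo* was 3.37-fold higher on 19 against 7 reads (1.36 to 9.48), and *Elane* 6.21-fold on 10 against 2 reads (1.32 to 58.3). The secondary granule genes thus had no common direction, since *Lcn2* was lower. At 2-fold or more, 2 of the 9 genes were higher and 2 lower, and of all genes 6.72% and 10.3%, or 4.92% and 14.8% with total counts. After the GC and length correction the log2 ratio of *Ngp* was 0.01 in place of 0.43 and that of *Camp* 0.35 in place of 1.10. It was -1.55 for *S100a8*, -1.87 for *S100a9*, -1.15 for *Csf3r*, -1.11 for *Retnlg* and -1.13 for *Lcn2*, so that 5 of the 9 genes were then at least 2-fold lower and 1 higher, beside 4.62% and 5.28% of all genes.

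Set side by side, the bleomycin ratios differed between genotypes most for the granule genes. The log2 ratio was -2.67 in WT and 2.46 in *Hps1*-/- libraries for *Ngp*, -3.10 and 2.24 for *Ltf* and -2.85 and 3.45 for *Camp*. The difference, *Hps1*-/- minus WT, was 5.13 for *Ngp*, 5.34 for *Ltf* and 6.29 for *Camp*, against a median of 0.15 over all genes. *Mpo* and *Elane* had differences of 4.37 and 4.58, which rest on the low counts in BLEO-WT. The other genes had smaller ones: 1.5 for *Lcn2*, 1.24 for *S100a8*, 0.89 for *Retnlg*, 0.77 for *S100a9* and 0.21 for *Csf3r*. Over all scalings, prior counts and the correction, the difference was between 4.49 and 5.16 for *Ngp*, 4.96 and 5.37 for *Ltf* and 5.30 and 6.42 for *Camp*. For *S100a9* it was between 0.11 and 0.80, for *Retnlg* between 0.17 and 0.91, and for *Csf3r* it changed sign, between -0.17 and 0.23. These differences share all 4 libraries and could not be tested with 1 library per group. Each equals the genotype log2 ratio with bleomycin minus that with PBS. For *Ngp*, *Ltf* and *Camp* these ratios were 0.43, 0.74 and 1.10 with bleomycin and -4.70, -4.60 and -5.20 with PBS. The differences of these genes thus mostly restate the PBS ratios, and the set had been chosen on such values.

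**Figure D3:**
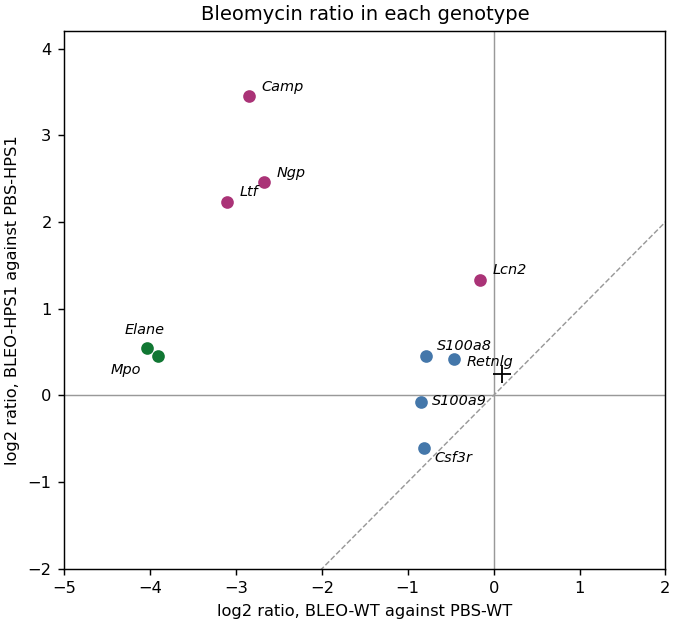
Log2 ratio of bleomycin to PBS in *Hps1*-/- libraries against that in WT libraries for the 10 genes (purple, secondary granule; green, primary granule; blue, others), with a black cross for the median of all compared genes and a dashed line where both ratios are equal. *Ngp*, *Ltf* and *Camp* are in the upper left, below 0 in WT and above 2 in *Hps1*-/- libraries, while *Csf3r* lies near the dashed line.

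Counts of one gene relative to another within a library need no scaling between libraries. For every 100 *S100a9* reads there were 14.5 *Ngp* reads in PBS-WT (interval 14.1 to 14.9), 2.63 *Ngp* reads in PBS-HPS1 (2.33 to 2.96), 4.09 *Ngp* reads in BLEO-WT (3.82 to 4.36) and 15.3 *Ngp* reads in BLEO-HPS1 (14.3 to 16.4). PBS-WT and BLEO-HPS1 had overlapping intervals, far above the other libraries. *Ltf* gave the same picture, with 13.5, 2.64, 2.82 and 13.2 reads per 100 *S100a9* reads. There PBS-HPS1 and BLEO-WT also overlapped each other (2.34 to 2.97 and 2.61 to 3.06). For *Mpo* the values were 0.327, 0.195, 0.0311 and 0.291, so BLEO-WT was the lowest.

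The remaining genes behaved otherwise. Per 100 *S100a9* reads, *Csf3r* had 60.6 reads in PBS-WT and 62.1 in BLEO-WT, but 140 in PBS-HPS1 and 96.6 in BLEO-HPS1. *Retnlg* had 16.3, 26.3, 21.2 and 37.1 reads in the order of groups given first. *Lcn2* had 10.9, 12.7, 17.5 and 33.6. Relative to *S100a9*, then, *Csf3r* and *Retnlg* were higher in both *Hps1*-/- libraries than in the WT library of the same treatment. Within calprotectin, *S100a8* ranged from 55.2 reads per 100 *S100a9* reads in PBS-HPS1 to 79.9 in BLEO-HPS1, a narrow range beside those of the granule genes. *Ltf* and *Ngp* kept close to each other, with 93.6, 100.4, 69.1 and 85.9 *Ltf* reads per 100 *Ngp* reads.

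**Figure D4:**
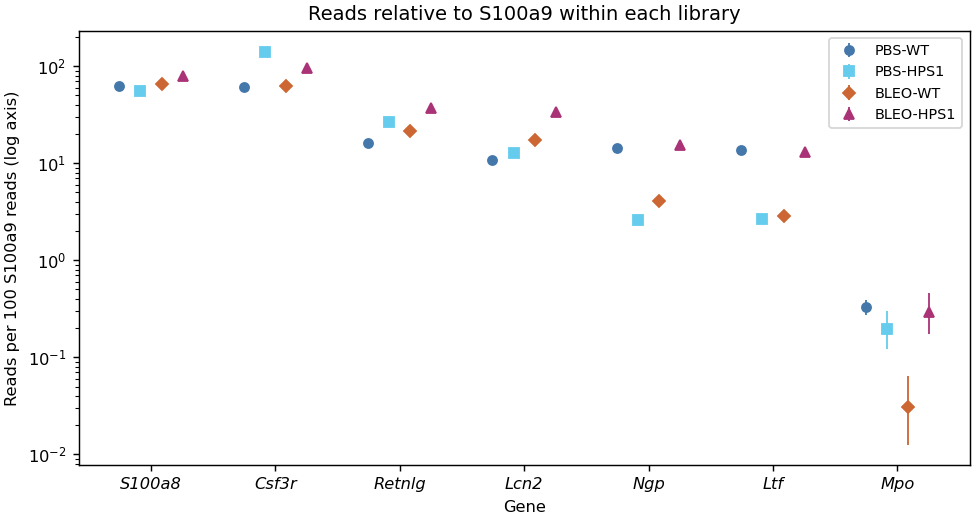
Reads of 7 genes per 100 *S100a9* reads (log axis) in each library, with exact 95% counting intervals as bars. *Ngp* and *Ltf* lie between 13.2 and 15.3 in PBS-WT and BLEO-HPS1 and between 2.63 and 4.09 in PBS-HPS1 and BLEO-WT, while *Csf3r* is highest in PBS-HPS1, at 140.

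As shares of the reads on all 10 genes, calprotectin took 58.0% and 60.5% in PBS-WT and BLEO-WT, and 45.7% and 47.5% in PBS-HPS1 and BLEO-HPS1. *Ngp*, *Ltf* and *Camp* together took 10.6%, 1.61%, 2.68% and 8.18%, in the order of groups given first. *Csf3r* alone took 21.6%, 41.1%, 22.7% and 25.5%. The makeup of PBS-HPS1 thus leaned to *Csf3r* and away from secondary granule genes. *Mpo* and *Elane* together took at most 0.172%, in PBS-WT.

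Other neutrophil genes, from lists of granule, maturation and receptor genes, were compared in the same way. These and all other gene lists were chosen with earlier results of these data known, so nothing follows from their counts. Many of the neutrophil genes are also transcribed in monocytes and macrophages. Of 47 compared, none was higher by 2-fold or more and 16 (34.0%) were lower by as much in PBS-HPS1 than in PBS-WT, with a median log2 ratio of -0.65, beside 3.11% of all genes, and 13 of 46 with total counts. Between the bleomycin libraries 14 of the 47 (29.8%) were lower and 2 (4.26%) higher in BLEO-HPS1, beside 10.3% and 6.72% of all genes. In BLEO-HPS1 against PBS-HPS1, 10 (21.3%) were higher and 11 (23.4%) lower, close to the 26.2% and 19.6% of all genes. Among primary granule genes, *Prtn3*, the protease proteinase 3, had 4.02 CPM in PBS-WT, 0.555 CPM in PBS-HPS1, 2.83 CPM in BLEO-WT and 5.32 CPM in BLEO-HPS1. Its low in PBS-HPS1 was like that of *Ngp*. *Ctsg*, which encodes cathepsin G, had 1.53, 0.212, 0.268 and 0.222 CPM, and like *Mpo* and *Elane* it was highest in PBS-WT and low in the other libraries. Like *Mpo*, *Ctsg* passed the 1 CPM filter only through PBS-WT. *Serpinb1a*, the cytosolic inhibitor of these proteases, was less than 2-fold lower in PBS-HPS1 (82.8 and 62.3 CPM).

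Of the 11 secondary and tertiary granule genes, 4 were at least 2-fold lower in PBS-HPS1 than in PBS-WT, beside 3.11% of all genes. These were *Hp* (haptoglobin, 196 and 74.4 CPM), *Mmp9* (gelatinase B, 183 and 73.1), *Cd177* (61.1 and 24.9) and *Mmp8* (neutrophil collagenase, 55.5 and 23.2). Their ratios were all smaller than the 4.08-fold of *Lcn2*. After bleomycin *Cd177* and *Pglyrp1* were at least 2-fold higher in the *Hps1*-/- library (40.0 and 18.1 CPM, and 59.4 and 29.2). *Mmp8* and *Olfm4* were at least 2-fold lower. Of all genes 6.72% were higher and 10.3% lower by as much. *Olfm4* passed the 1 CPM filter only through BLEO-WT, so its call leans on the filter. After the GC and length correction neither of the higher ones reached 2-fold. *Chil3*, a chitinase-like protein that alveolar macrophages also make in quantity, was the most abundant of the list at 1758 to 3926 CPM, and its log2 ratio in PBS-HPS1 was -0.14.

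Of 15 mature neutrophil genes compared, 7 were at least 2-fold lower in PBS-HPS1 than in PBS-WT and none higher. Of all genes 3.11% were lower and 2.16% higher by as much. *Ly6g* had a log2 ratio of -2.74 and *Il1f9*, an IL-1 family cytokine also named IL-36 gamma, of -1.26. *Itgam* had a ratio of -0.70. Reads on *Stfa2l1* (log2 ratio -1.80) may be split among near-identical stefin genes. After bleomycin 6 of the 15 were at least 2-fold lower in BLEO-HPS1 than in BLEO-WT, and none was higher. Among the 6 were *Ly6g* at -1.11, *Slfn4* at -1.98 and *Acod1* at -2.46. Of all genes 10.3% were lower by as much, or 14.8% with total counts.

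Of 18 receptor genes, 3 were at least 2-fold lower in PBS-HPS1 than in PBS-WT, beside 3.11% of all genes. After bleomycin 6 of the 18 were lower by as much in the *Hps1*-/- library, and 4 with DESeq2 size factors or the GC and length correction. The shares of all genes were 10.3%, 8.38% and 4.62%, in that order. *Cxcr2*, the chemokine receptor that draws neutrophils into tissue, had 96.4 CPM in PBS-WT, 35.3 CPM in PBS-HPS1, 45.7 CPM in BLEO-WT and 13.7 CPM in BLEO-HPS1. Like *Csf3r* it was lowest in BLEO-HPS1. The others were *Mrgpra2b*, whose reads may be shared with a near-identical copy, and *Ltb4r1*, the leukotriene B4 receptor, with a log2 ratio of -1.05. The formyl peptide receptor *Fpr1* and the retention receptor *Cxcr4* had ratios of -0.03 and -0.11. *Cxcr4* was at 403 to 456 CPM in all libraries.

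**Figure D5:**
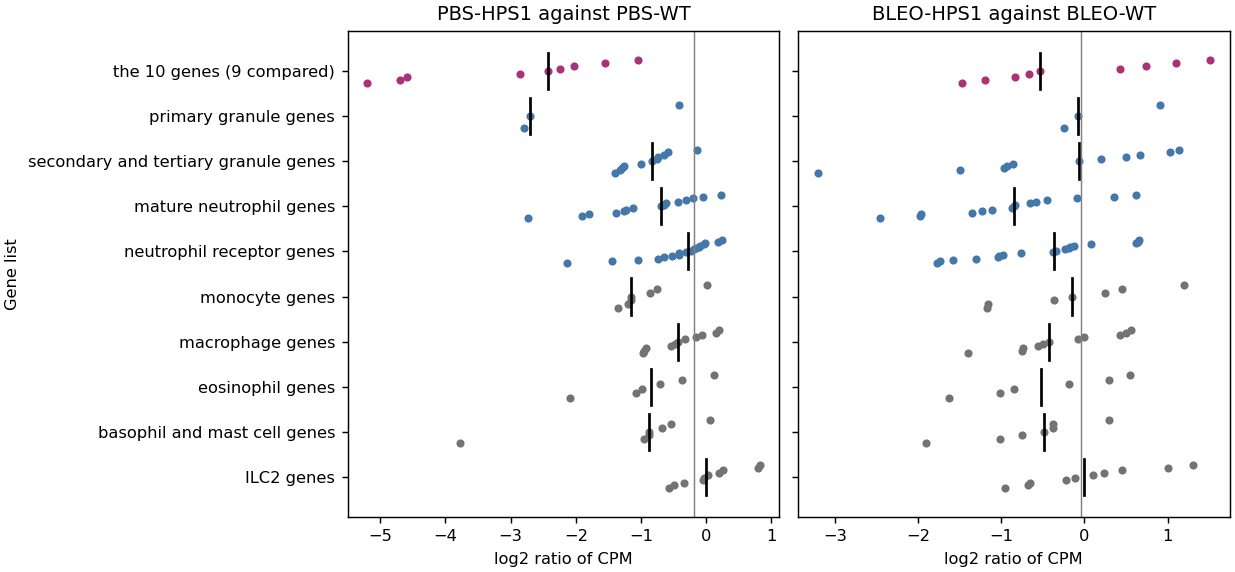
Log2 ratios of CPM of the compared genes in each list (points) with the list's median (black bar), comparing genotypes with PBS (left) and with bleomycin (right). The grey vertical line is the median of all 14840 compared genes. On the left the 9 compared genes of the set have a median of -2.43 and the ILC2 genes one of -0.0049. On the right the granule lists lie near the median of all genes.

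The ligands of these receptors were measured in the same libraries. *Csf3*, which encodes G-CSF, had 21 reads in PBS-WT, 35 reads in PBS-HPS1, 141 reads in BLEO-WT and 70 reads in BLEO-HPS1. The CXCR2 ligand *Cxcl1* had a CPM of 29.6, 33.3, 121 and 74.2, so both were higher with bleomycin within each genotype, where *Csf3r* and *Cxcr2* were lower. *Cxcl2*, another CXCR2 ligand, had 706, 650, 1353 and 635 CPM. Other attractant genes went the other way, and *Cxcl3*, *Ppbp* and *Cxcl15* were lower with bleomycin in both genotypes. Their log2 ratios were -0.49, -0.47 and -1.56 in WT and -1.98, -1.57 and -2.69 in *Hps1*-/- libraries. Of 9 growth factor and attractant genes compared, 1 was at least 2-fold lower in PBS-HPS1 than in PBS-WT, beside 3.11% of all genes. This was *Il17a*, with 1.4 CPM in PBS-HPS1 and 9.88 CPM in PBS-WT. It encodes IL-17A, a cytokine that makes other cells release G-CSF. After bleomycin 6 of the 9 were at least 2-fold lower in BLEO-HPS1 than in BLEO-WT and none higher. Of all genes 10.3% were lower and 6.72% higher by as much. In BLEO-HPS1 against PBS-HPS1, 5 of the 9 were lower and 2 higher, beside 19.6% and 26.2% of all genes. In BLEO-WT against PBS-WT, 1 was lower and 2 were higher, beside 8.22% and 5.28%.

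Transcription factor genes of the granulocyte line gave smaller ratios between the PBS libraries. *Cebpe*, needed for secondary granules, had 164 reads in PBS-WT, 99 reads in PBS-HPS1, 165 reads in BLEO-WT and 247 reads in BLEO-HPS1, or 2.10, 1.0, 2.10 and 3.91 CPM. It was lowest in PBS-HPS1 and highest in BLEO-HPS1. Its log2 ratio of -1.05 in PBS-HPS1 was the only one of 6 to reach 2-fold, beside 3.11% of all genes lower by as much. With total counts none of the 6 did. In BLEO-HPS1 against PBS-HPS1, 3 of the 6 were at least 2-fold higher, beside 26.2% of all genes. These were *Cebpa*, *Cebpe* and *Spi1*, at log2 ratios of 1.01, 1.94 and 1.03. After the GC and length correction none was, and *Cebpe* came to 0.86. *Gfi1*, which represses monocyte genes in granulocytes, was at 9.09 to 10.6 CPM in all libraries.

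Of 7 genes for receptors or inhibitors of the neutrophil proteins, 1 was at least 2-fold higher and none lower in PBS-HPS1. The shares of all genes were 2.16% and 3.11%. The higher gene was *Serpina3n*, a secreted protease inhibitor, with 6.45 CPM in PBS-WT, 13.5 CPM in PBS-HPS1, 86.2 CPM in BLEO-WT and 365 CPM in BLEO-HPS1. It was lowest in PBS-WT, where all 10 neutrophil genes were highest. *Ager*, the receptor RAGE that binds calprotectin, was at 58.4 to 96.1 CPM, and *Slc22a17*, a receptor of lipocalin 2, at 7.5 to 12.4 CPM. *Slpi*, an inhibitor of elastase, had 167, 123, 65.0 and 61.7 CPM.

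Markers of other cells also differed between the libraries. Of 7 monocyte genes, 4 were at least 2-fold lower in PBS-HPS1 than in PBS-WT, beside 3.11% of all genes. The summed level of the 7 was 1764 CPM in PBS-HPS1 and 2486 CPM in PBS-WT. With total counts only *Ms4a4c* of the 7 reached 2-fold. After bleomycin *Ly6c2* was 2-fold or more higher in the *Hps1*-/- library, and *Ccr2* and *F13a1* at least 2-fold lower, but after the GC and length correction these came to log2 ratios of -0.34 and -0.78. Macrophage genes summed to 2382, 2027, 5518 and 6293 CPM, and none of 11 was 2-fold lower in PBS-HPS1. The complement genes *C1qa*, *C1qb* and *C1qc* carried most of the rise with bleomycin (*C1qa* at 143, 73.2, 1391 and 2047 CPM), while *Krt79*, *Plet1* and *Cidec* were more than 2-fold lower with bleomycin in both genotypes. Basophil and mast cell genes summed to 132, 94.1, 50.2 and 38.6 CPM. Of their 7, 1 was at least 2-fold lower in PBS-HPS1, *Prss34*. Eosinophil genes summed to 242, 179, 41.4 and 22.3 CPM, with the defining granule gene *Epx* at 9 reads or fewer in each library. ILC2 genes summed to 697, 613, 540 and 779 CPM, and none of 10 was 2-fold different between the PBS libraries. With total counts 2 of 11 were at least 2-fold higher in PBS-HPS1, beside 4.38% of all genes, and none was lower by as much. The high sum in BLEO-HPS1 came mostly from *Thy1* (206 CPM in PBS-HPS1 and 551 CPM in BLEO-HPS1). Of the 10 ILC2 genes compared, 4 were at least 2-fold lower in BLEO-HPS1 than in PBS-HPS1, and 2 were higher by as much. The lower ones were *Il7r*, *Icos*, *Il5* and *Il13*. *Il5* and *Il13* passed the 1 CPM filter only through PBS-HPS1, so their calls lean on the filter. The shares of all genes were 19.6% and 26.2%. After the GC and length correction *Il7r* and *Icos* came to log2 ratios of -0.30 and -0.51. Then 3 of the 10 were lower and 2 higher, beside 8.84% and 17.1% of all genes. Red cell genes summed to 221, 275, 269 and 770 CPM, and airway and alveolar epithelial genes, whose cells can make *Lcn2*, to 1118, 811, 588 and 387 CPM. *Sftpc* was the largest part of the epithelial sum in each library. In PBS-HPS1 against PBS-WT 4 of the 9 epithelial genes, *Scgb3a1*, *Scgb3a2*, *Bpifa1* and *Reg3g*, were at least 2-fold higher and none lower. Of all genes 2.16% were higher by as much. All 7 monocyte and all 11 macrophage genes had reads in each library. The antibodies against Ly6C and CD11b were among those used to discard other lineages, and classical monocytes carry both. The part of such cells in the levels of the 10 genes was not tested.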

How the data were processed

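The authors deposited 1 table of raw, unnormalized counts, a whole number for each Ensembl gene in each of 4 libraries of ILC2s, 1 per group. RNA came from an RNeasy kit and cDNA libraries from a SMARTER mRNA-Seq kit. The aligner, counting tool, genome build and annotation are not given in the sources used here, nor is whether counting used strand. Groups were taken from the sample labels.

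Library sizes were scaled with TMM factors of edgeR 4.0.16 (R 4.3.3), which were 1.08 and 1.27 (PBS-WT and PBS-HPS1) and 0.895 and 0.816 (BLEO-WT and BLEO-HPS1). Log2 CPM used a prior count of 2, folds were taken from CPM without it, and the 14840 genes that reached 1 CPM in some library were compared. A difference of at least 2-fold was counted. Intervals are exact Clopper-Pearson intervals at 95% from scipy 1.17.1. PCR copies are not independent molecules, so they cover counting error only. With 1 library per group no test of a condition was possible. Comparisons that share a library are not independent. Total counts were 72513619, 77703133, 87638154 and 77428740, and 3 reads stood for 0.0303 to 0.0475 CPM.

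GENCODE M21 held 48970 of the gene identifiers and gave GRCm38 positions, exon lengths and GC contents. All 10 genes matched a RefSeq promoter window (GRCm38.p6). The annotation places *Gm11505*, with 0 reads, antisense within *Mpo* and no other gene over the 10.

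The alternatives were DESeq2 size factors (version 1.42.0), total counts, prior counts of 0.5 or 10, a filter of 10 counts in every library or none, a 4-fold limit and a loess correction (span 0.3) of log2 ratios for GC content and length. The steps were tested on simulated data. The 10 genes and all gene lists were chosen with earlier results of these data known. Named genes were the 10, *Hps1*, members of the lists, and the 10 genes with at least 5 CPM in some library whose log2 CPM profile was nearest to the mean profile of the set, of which 1 is not reported here.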

Additional observations from a re-analysis of the deposited data

Results flagged for a closer look

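The log2 ratio of bleomycin to PBS had opposite signs in the genotypes, with each counting interval clear of 0, for 6 of the 10 genes. The difference, *Hps1*-/- minus WT, was 6.29 for *Camp*, 5.34 for *Ltf* and 5.13 for *Ngp*, all of which were lower with bleomycin in WT and higher with bleomycin in *Hps1*-/- libraries. It was 1.5 for *Lcn2*, 1.24 for *S100a8* and 0.89 for *Retnlg*. The difference was not tested, since each group had 1 library. For *Ngp*, *Ltf* and *Camp* it mostly restates the ratio of PBS-HPS1 to PBS-WT, and the set had been chosen on such values. With total counts *S100a8* and *Retnlg* were lower with bleomycin in both genotypes, and after the GC and length correction *Retnlg* was.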

How the results depend on the processing

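No paired analysis was possible because each group had 1 library. Of the 200 values of single genes under alternative scalings, prior counts and the correction, 194 kept their direction, and the other 6 were all in BLEO-HPS1 against PBS-HPS1. For the set, DESeq2 size factors and a prior count of 0.5 left every median within counting error and every count within 1.5 times. Of the lists, some counts moved by more than 1.5 times with DESeq2 size factors. S100 genes at least 2-fold higher went from 1 to 2 in BLEO-HPS1 against BLEO-WT and from 2 to 1 in BLEO-WT against PBS-WT. Eosinophil and basophil genes lower between the bleomycin libraries went from 2 to 1 each. Smaller moves included neutrophil genes lower between the bleomycin libraries, from 14 to 12 of 47. Growth factor and attractant genes lower in BLEO-HPS1 against PBS-HPS1 went from 5 to 4. The counts and medians below are over the 9 compared genes unless said otherwise.

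With total counts the median log2 ratio between genotypes was -2.19 with PBS and -0.66 with bleomycin, and that of bleomycin to PBS was -1.11 in WT and -0.13, reversed from 0.46, in *Hps1*-/- libraries. The median of all genes moved with it, from -0.19 to 0.06, from -0.04 to -0.18, from 0.09 to -0.18 and from 0.25 to -0.43. Then 1 gene was at least 2-fold higher in BLEO-HPS1 compared with BLEO-WT, 7 were lower in BLEO-WT than in PBS-WT and 1 was lower in BLEO-HPS1 than in PBS-HPS1. The median difference between genotypes was 1.12 in place of 1.5. Of the genes, *S100a8*, *Retnlg* and *Mpo* turned to -0.18, -0.22 and -0.13 in BLEO-HPS1 against PBS-HPS1.

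After the GC and length correction the medians were -2.17, -1.11, -0.97 and 0.019 in the same order, the median difference was 0.72, and 1 gene was higher and 5 were lower in BLEO-HPS1 than in BLEO-WT (of all genes 5.28% and 4.62%) and 1 lower than in PBS-HPS1 (8.84%). *Retnlg*, *Mpo* and *Elane* turned to -0.24, -0.16 and -0.66 in BLEO-HPS1 against PBS-HPS1. Across 11133 genes, Spearman's rho of GC content with the log2 ratio was -0.0726, 0.609, 0.485 and 0.602 in that order. For transcript length it was 0.429, -0.493, -0.256 and -0.517. Genes are not independent replicates.

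With no filter, which adds *Elane*, the medians were -2.58, -0.049 and -1.76 in the first 3 comparisons. With a prior count of 10, or at least 10 counts in every library, 1 gene was higher in BLEO-HPS1, set against BLEO-WT, and at 4-fold 0 were higher and 0 lower. Secondary granule genes took 14.4%, 5.34%, 9.06% and 17.1% of the reads on the 10 genes in the order of groups given at the start. Per kilobase these were 6.34%, 2.21%, 3.24% and 7.57%, and without calprotectin 34.4%, 9.83%, 22.9% and 32.5%. Low reads limit *Mpo* and *Elane*.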

Other observations

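The relatives of calprotectin in the S100 family were not ordered like it. *S100a4* and *S100a6*, which many stromal and myeloid cells make, had a CPM of 115 and 151 in PBS-WT, 43.6 and 70.1 in PBS-HPS1, 232 and 275 in BLEO-WT and 354 and 418 in BLEO-HPS1. Both were at least 2-fold lower in PBS-HPS1 than in PBS-WT, as *S100a8* and *S100a9* were, but highest in BLEO-HPS1. After the GC and length correction their log2 ratios in BLEO-HPS1 against BLEO-WT were 0.003 and -0.04 in place of 0.61 each. With total counts or the correction *S100a6* was less than 2-fold lower in PBS-HPS1. Of 9 S100 genes compared, 7 were at least 2-fold higher in BLEO-HPS1 than in PBS-HPS1, beside 26.2% of all genes, and 4 with total counts and 3 after the correction. *Retnla*, the relative of *Retnlg* that marks macrophages responding to type 2 cytokines, had 44.5 CPM in PBS-WT, 30.3 CPM in PBS-HPS1, 160 CPM in BLEO-WT and 118 CPM in BLEO-HPS1, so its highs were in the bleomycin libraries.

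A basophil protease gene had a pattern near that of *Mpo*. *Prss34* had 2031 reads in PBS-WT, 185 reads in PBS-HPS1, 174 reads in BLEO-WT and 173 reads in BLEO-HPS1, or 26.1, 1.87, 2.22 and 2.74 CPM. Another basophil protease gene, *Mcpt8*, did not share the low in PBS-HPS1, with 11.6, 6.27, 1.49 and 1.14 CPM. The eosinophil granule gene *Prg2* had 167, 48, 29 and 35 reads.

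Over the 4 libraries, the genes whose centred log2 CPM profile was nearest to the mean profile of the 9 neutrophil genes, of 11590 candidates, included *Steap4*, *Camk2a*, *Cxcl9*, *Gm9733*, *Map1a*, *Trdv4*, *Oasl2*, *Bcas1* and *Cpe*, at root mean square distances of 0.34 to 0.53 on the log2 scale. *Steap4*, a metalloreductase, had 27.7, 4.35, 15.2 and 8.18 CPM. None of these was in the neutrophil lists. With 4 points per profile, likeness of this kind is a description only.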
